A study of Mus musculus with 50 samples.

Results

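The 24 oocytes labelled as Zfp36l2 conditional knockout were described here as single cells: which transcripts differed between oocytes taken from the same mouse, which of them moved together, and which abundant transcripts were nearly the same in every oocyte. These were all 24 columns of the count table whose header marks a knockout, out of 50 oocytes in the series; the other 26 carried the floxed allele without the knockout. The knockout oocytes came from 4 mice, with 1 oocyte from mouse 1, 7 from mouse 2, 8 from mouse 3 and 8 from mouse 4. The single oocyte of mouse 1 gives no within-mouse spread and is printed beside the other 23 only as a value. No test between the genotypes was made, and floxed values are printed only beside those of the knockout oocytes.

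All females were 5 weeks old and had received 10 IU of PMSG, which stimulates follicles to grow, 46 hours before collection. Fully cumulus-enclosed oocytes at the germinal vesicle stage were released into medium with 5 μM milrinone, an inhibitor that keeps the oocyte in meiotic arrest, and were stripped of surrounding cells and of the zona pellucida. Each oocyte was made into its own poly(A)-primed cDNA library. The labels name the animals as cKO-Zfp36l2 and F/F- and do not give the Cre driver, the strain or whether mice were littermates, and the deletion was not checked per oocyte.

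ZFP36L2 is an RNA-binding protein of the ZFP36 family, whose members bind AU-rich elements and shorten the life of the bound mRNA. A growing oocyte stores mRNA for maturation and early development, and transcription stops when growth is complete, so its later mRNA levels depend mostly on stability, poly(A) tail length and translation. Oocytes of 1 ovary complete growth at different times, and a cohort collected together need not be at the same point.

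Total counts of the 24 oocytes ran from 4332108 to 6233840 (median 5211210), and 13382 to 14218 genes had a count once each oocyte was thinned to 3000000 counts. For the 77 pairs of oocytes of the same mouse the chi-square per degree of freedom was 9.66 to 28.2; reads without molecular identifiers are not independent molecules, so this says only that no pair of libraries held the same counts. Oocyte markers were high in every oocyte: Gdf9 at 511 to 668 CPM (the count scaled to the library total) and Zp3 at 355 to 494 CPM. The summed cumulus and granulosa list of 22 measured genes was 370 to 773 CPM (435 to 724 CPM in floxed oocytes). Foxl2 was at 0 in 6 oocytes, Amhr2 at 0 in 10 and Fshr at 0 in 6. Other members had counts in every oocyte: Serpine2 at 131 to 275 CPM, Cyp19a1 at 37.7 to 127, Nr5a2 at 22.5 to 67.3, Kitl at 12.9 to 86.4 and Inha at 5.24 to 146 CPM. Serpine2 and Cyp19a1 had the highest medians of the list, so the sum rests largely on them. The summed blood, vessel and stroma list was 12.9 to 68.4 CPM (89.2 to 243 CPM in floxed oocytes). This sum was mostly 1 gene, Pecam1, at 8.09 to 56.9 CPM (78.6 to 211 CPM in floxed oocytes). No other member passed 20.6 CPM, the highest floxed value of Cd68, so the sum is no measure of attached blood or stroma cells. Mouse 3 oocyte 1, at 773 CPM, and mouse 2 oocyte 7, at 614 CPM, stood above the other oocytes of their mice in the cumulus sum. Results were therefore also computed without the oocyte of each mouse with the highest cumulus sum, which gave 177 variable genes (130 of them shared) and 220 uniform genes (156 shared).

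The 4 genes used to check the label were high in the knockout oocytes but differed in level and in SD. Hpse, which encodes heparanase, was 249 to 458 CPM, a within-mouse SD of 0.16 on the log2(CPM + 1) scale. Cuedc1, a ubiquitin-binding CUE domain gene, was 40.5 to 143 CPM (SD 0.36), and Gldn, which encodes gliomedin, 38.5 to 113 CPM (SD 0.49). All 24 oocytes lay above the highest floxed oocyte for these 3 genes. The 3 belong to a list of knockout-high transcripts chosen earlier on these same samples, so this separation is no independent check of the label. Zfp36, the paralogue that encodes tristetraprolin, was lower, at 6.2 to 35.9 CPM with a larger SD (0.58). For it, 20 of 24 oocytes lay above the highest floxed one. Zfp36l2 itself was 0 to 6.1 CPM with no count in 3 oocytes, and Zfp36l1 was 0 to 6.14 CPM with no count in 10. In floxed oocytes Zfp36l2 was 0 to 9.42 CPM (median 2.99) and Zfp36l1 0 to 3.28 CPM, so the ranges overlapped and neither gene set the labels apart. At these totals a count of 0 allows up to 0.481 to 0.693 CPM, counting error only.

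Spread fell steeply with level, so each gene was set against the trend at its own level. Among the 9617 genes that averaged at least 10 CPM, the median within-mouse SD was 0.31 on the log2 scale. It was 0.69 for genes at 10 to 20 CPM and 0.14 for genes at 200 CPM and above. Dividing a gene's SD by the trend gives its spread over the trend, where a value of 1 is ordinary. By this measure the order of the label-check genes changed: Zfp36 was at 0.913, Hpse at 1.35, Cuedc1 at 1.35 and Gldn at 1.63. Zfp36 was thus the lowest of them when mice were pooled, but not in each mouse. In mouse 2 Zfp36 was at 1.43 and Hpse at 0.759, and in mouse 4 Zfp36 was at 0.747 and Cuedc1 at 0.67. Hpse was at 2.276 in mouse 3 and at 0.81 in mouse 4. The ranking of all genes held across animals in part. The Spearman correlation across genes between 2 mice was 0.479 to 0.544, where genes are not independent and share transcript length and level.

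**Figure D1:**
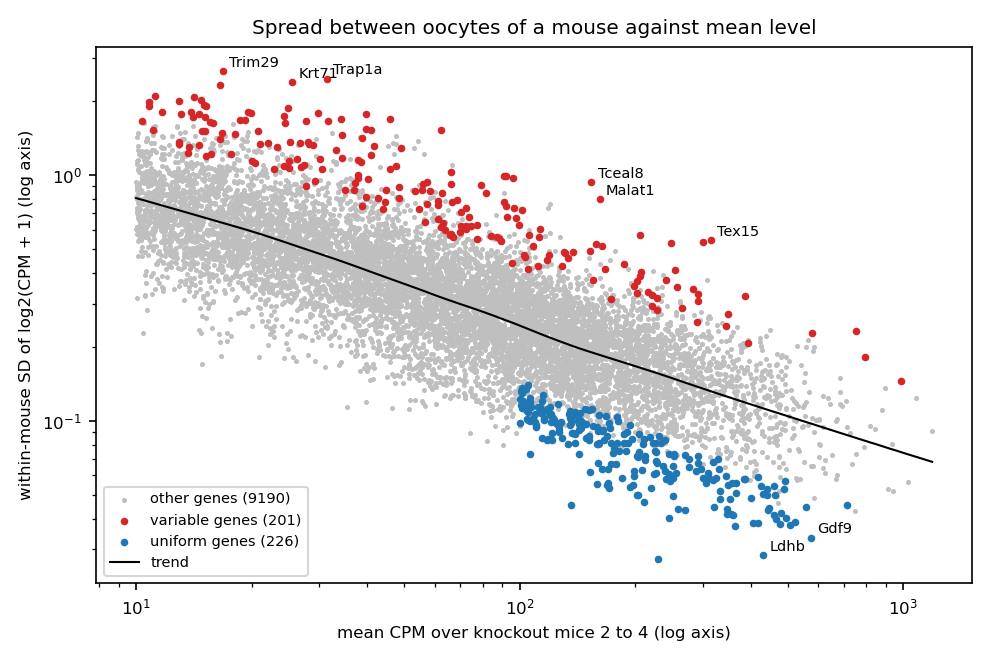
Within-mouse SD of log2(CPM + 1) against mean CPM for 9617 genes over 23 knockout oocytes, both on log axes. Red points are the 201 variable genes, blue points the 226 uniform abundant genes, grey points the rest, and the line is the trend; Trap1a and Tceal8 lie farthest above the line for their level and Ldhb far below it.

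A gene was called variable if its spread over the trend was in the top 10% in each of mice 2, 3 and 4, ranked separately. The rule called 201 of 9617 genes (2.09%), with a median within-mouse SD of 0.87 against 0.31 over all genes. It has a sharp edge: Tug1, a long non-coding RNA, was just inside, with its lowest percentile in the 3 mice at 90.02, and Atp13a3 just outside at 89.87. The call itself is a description of these oocytes, and no test belongs to it. Floxed oocytes, which the rule did not use, gave a separate reading of the same genes. Of the 152 variable genes with a floxed mean of 10 CPM or more, 89 were also in the top 10% of spread among floxed oocytes, or 58.6%, beside 9.84% of all genes measured there. The other 49 variable genes (24.4%) had a floxed mean under 10 CPM, beside 7.82% of all genes.

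Leaving out unnamed gene models such as C130074G19Rik, the 16 genes of highest spread over the trend were Trap1a, Tceal8, Dock11, Krt71, Uts2r, Clec2g, Malat1, Tex15, Trim29, Map1b, Dync2h1, Nfkbiz, Gbp7, Tox3, Dgkk and Ccnb1ip1. Some were close to absent in one oocyte and plentiful in its neighbour. Trim29, a TRIM family protein gene, had no count in 15 of the 23 oocytes and reached 152 CPM in mouse 4 oocyte 1 and 93.7 CPM in mouse 4 oocyte 2. Krt71, a keratin of the hair follicle sheath, was under 10 CPM in 14 of the 23 oocytes, and its highest value was 135 CPM, in mouse 4 oocyte 2. Uts2r, the urotensin II receptor gene, ran from 0 to 113 CPM with a median of 42.7, and Clec2g, a C-type lectin gene, from 0 to 108 CPM with a median of 34.5. High and low oocytes occurred within each mouse: the highest Trim29 value was 40.2 CPM in mouse 2, 67.5 CPM in mouse 3 and 152 CPM in mouse 4, each beside oocytes at 0.

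Most other genes of high spread had counts in every oocyte and differed in amount. Tex15, a germ cell gene needed for meiotic recombination and transposon silencing in the male germline, ran from 135 to 707 CPM with a median of 298. Map1b, a microtubule-associated protein gene, ran from 94.4 to 461 CPM with a median of 299, and its lowest oocytes were 2 of mouse 2, at 94.4 and 103 CPM. Malat1, a nuclear long non-coding RNA, ran from 33 to 314 CPM (median 156). Dync2h1, the heavy chain of the ciliary dynein, ran from 19.6 to 231 CPM, and Nfkbiz, a regulator of NF-κB targets, from 10.6 to 228 CPM. Dock11, an X-linked activator of the GTPase CDC42, ran from 2.28 CPM in mouse 3 oocyte 1 to 139 CPM in mouse 4 oocyte 3. Gbp7, an interferon-inducible GTPase gene, ran from 20.9 to 191 CPM, Tox3, a transcription factor gene, from 0 to 97.2 CPM, and Dgkk, a diacylglycerol kinase gene, from 0 to 68.1 CPM. Of the 16 genes, 12 were variable under every alternative that gave a value, and Uts2r, Gbp7, Tox3 and Ccnb1ip1 were not when a median absolute deviation replaced the SD.

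**Figure D2:**
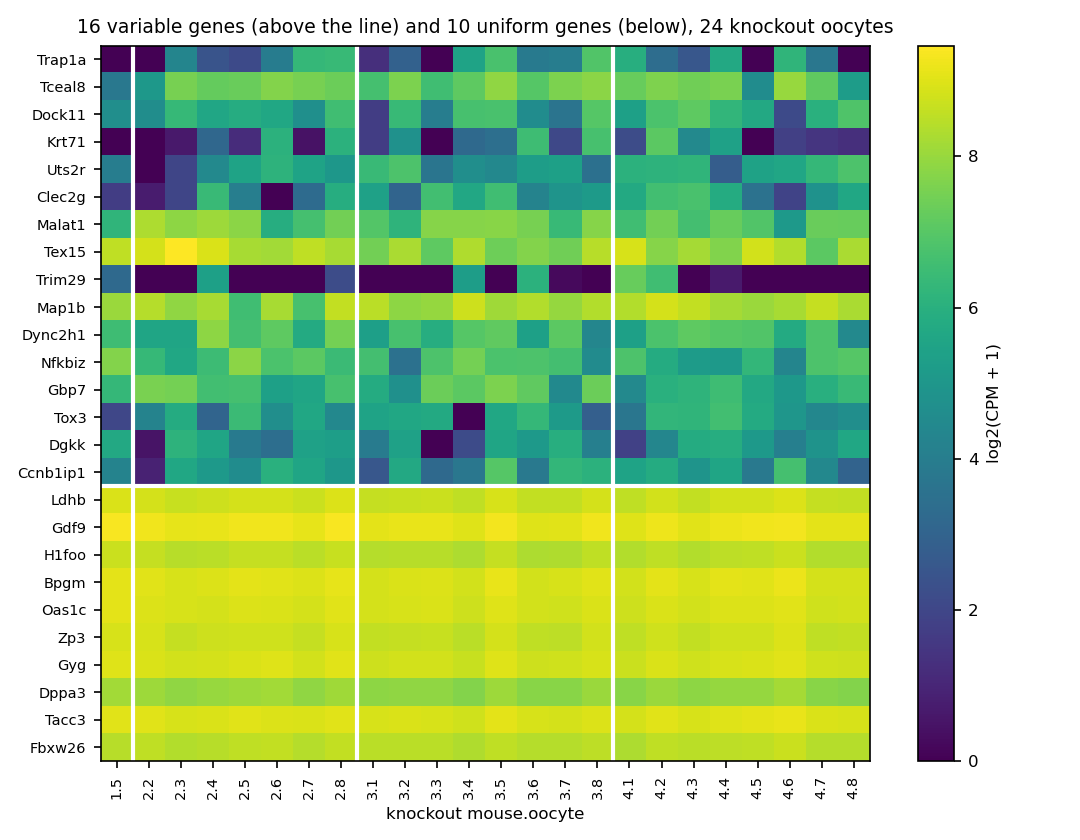
log2(CPM + 1) of the 16 named genes of highest spread (above the horizontal line) and the 10 uniform genes of lowest SD (below it) in each of the 24 knockout oocytes, with columns by mouse and oocyte number and vertical lines between mice. The upper rows change from oocyte to oocyte within every mouse, as in Trim29 with 15 of 23 oocytes at 0, and the lower rows keep almost 1 colour.

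Length and chromosome of the variable genes are given as counts, with no test. The median transcript length was 3827 bases in variable genes and 3017 over all genes, and 49 of 201 variable genes (24.4%) were at or above the 90th percentile of length, 6640 bases. When the trend was fitted on level and length together, 215 genes were variable, 147 of them shared. Of 320 X-linked genes measured, 21 were variable (6.56%), beside 1.94% of genes on the other chromosomes. Under all the alternatives tried this share stayed above that of the other chromosomes, from 4.38% beside 1.01% with the median absolute deviation to 11.4% beside 3.75% without mouse 2. The summed level of all X-linked genes was 29347 to 35946 CPM in the 23 oocytes.

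The tightest of the 7 groups of co-varying genes held 3 X-linked genes and 1 autosomal gene. Trap1a (chromosome X, 139333683 to 139338169, mm10) encodes the tumour rejection antigen P1A, a protein best known from germ cells and tumours. Tceal8 (X, 136168984 to 136172342) encodes a protein of the transcription elongation factor A-like family, and Hnrnph2 (X, 134601179 to 134607060) a splicing-related RNA-binding protein. Ccnb1ip1, on chromosome 14, encodes the ubiquitin ligase HEI10, which acts at meiotic crossovers. Because they moved together, the 250 bases before the RefSeq start of each X-linked gene are shown (GRCm38.p6). The RefSeq start of Tceal8 lies inside the GENCODE model whose ends are given above, so its window overlaps that model. The windows read 5′ to 3′ on the gene's strand, with CCAAT or its reverse complement ATTGG in capitals.
Trap1a, chrX:139333433-139333682, plus strand: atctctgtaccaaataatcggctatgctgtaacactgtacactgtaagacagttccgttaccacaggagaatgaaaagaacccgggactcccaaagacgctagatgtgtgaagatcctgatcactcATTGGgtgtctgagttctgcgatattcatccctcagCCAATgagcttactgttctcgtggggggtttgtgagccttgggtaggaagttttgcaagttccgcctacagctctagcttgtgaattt
Tceal8, chrX:136172252-136172501, minus strand: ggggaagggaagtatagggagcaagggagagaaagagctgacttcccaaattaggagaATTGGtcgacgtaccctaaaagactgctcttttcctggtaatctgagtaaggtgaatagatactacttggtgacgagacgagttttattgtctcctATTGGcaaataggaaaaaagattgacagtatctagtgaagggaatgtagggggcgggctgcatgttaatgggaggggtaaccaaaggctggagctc
Hnrnph2, chrX:134600929-134601178, plus strand: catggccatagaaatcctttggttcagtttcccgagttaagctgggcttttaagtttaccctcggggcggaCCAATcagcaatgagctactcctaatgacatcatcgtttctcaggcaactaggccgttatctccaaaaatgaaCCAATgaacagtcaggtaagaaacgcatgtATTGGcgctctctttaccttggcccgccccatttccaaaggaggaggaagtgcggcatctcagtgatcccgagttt

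The letters CCAAT, read on both strands, occurred 2 times in the Trap1a window, 2 in that of Tceal8 and 3 in that of Hnrnph2. At least 1 such match was present in 33.8% of the 32851 mouse promoter windows of this length, and at least 2 in 10.1%. TATAAA was in none of the 3 windows (12.4% of all), GGGCGG was in those of Tceal8 and Hnrnph2 (32.7% of all) and CACGTG in none (6.02% of all). The window of the autosomal gene Ccnb1ip1, searched in the same way and not printed above, had 0 matches to each of these motifs. It covers bases 50795729 to 50795978 of chromosome 14, on the minus strand. That lies wholly inside the gene model, 50789248 to 50807732, and the bases before the model's own start were not searched. No motif searched was therefore shared by all the windows of the group, which says nothing of other starts of these genes. These motifs were picked by hand, and a match is only a match of letters.

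The same few oocytes were lowest in Trap1a and Tceal8. Trap1a was 0 to 81.4 CPM in mouse 2 (median 14.6), 0 to 119 CPM in mouse 3 and 0 to 71.9 CPM in mouse 4, and no count was found in 4 of the 23 oocytes. Tceal8 was at least 94.3 CPM in 20 of the 23 oocytes, and 32.3, 23.2 and 36.4 CPM in mouse 2 oocyte 2, mouse 4 oocyte 5 and mouse 4 oocyte 8. Those 3 oocytes and mouse 3 oocyte 3, the next lowest in Tceal8 at 94.3 CPM, were the 4 without a Trap1a count. The oocyte of mouse 1 also had no Trap1a count and held 12.9 CPM of Tceal8, 39 CPM of Hnrnph2 and 18 CPM of Ccnb1ip1. Hnrnph2 ran from 41.3 to 200 CPM and Ccnb1ip1 from 0.855 to 124 CPM, with mouse 2 oocyte 2 lowest and mouse 3 oocyte 5 highest in both.

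The 6 pairwise correlations over 23 oocytes were 0.741 to 0.857, and each pair was positive in every mouse, the lowest being 0.662 for Trap1a with Ccnb1ip1 in mouse 3. The mean correlation was 0.795, and 0.762 without the oocyte of each mouse with the highest cumulus sum. These are descriptions of cells that share libraries, and the genes were grouped by the same values. In floxed oocytes Trap1a was at most 2.34 CPM and Tceal8 had a median of 2.33 CPM with a highest value of 94.4 CPM, so only 2 of the 4 reached the level filter there and the mean correlation of those was −0.148. The 3 X-linked genes lie within 4.74 megabases, which hold 8 other genes of 10 CPM or more. The correlation of these neighbours with the mean of the 3 ran from 0.005 for Bex4 to 0.634 for Armcx5, with a median of 0.24; they were looked up after the group had been seen.

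**Figure D3:**
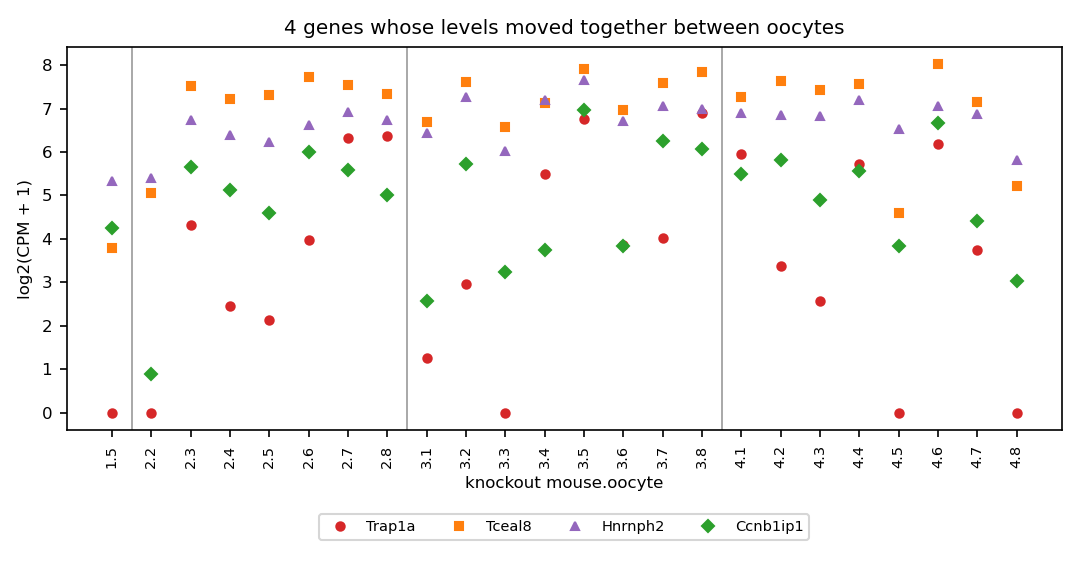
log2(CPM + 1) of Trap1a, Tceal8, Hnrnph2 and Ccnb1ip1 in each of the 24 knockout oocytes, with vertical lines between mice. Trap1a is at 0 in mouse 2 oocyte 2, mouse 4 oocyte 5 and mouse 4 oocyte 8, where Tceal8 is at 32.3, 23.2 and 36.4 CPM.

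The largest groups of co-varying variable genes held 15, 10, 9 and 8 genes; the 7 groups together held 54 of the 201 variable genes, and 55 variable genes joined no other. The group of 15 was led by Lcp1 (L-plastin, an actin-bundling protein), Spcs3 (a signal peptidase subunit), Gbp7 and Malat1, and also held Gpkow, Zfp644, Clp1 and Zfp473. Its mean correlation was 0.706, and its mean level was lowest in mouse 2 oocyte 7, by 1.19 on the log2 scale below the mouse mean, and highest in mouse 2 oocyte 2, by 0.74 above. Lcp1 ran from 33.6 to 162 CPM and Spcs3 from 15 to 141 CPM. The mean of this group had a correlation of 0.764 with the number of genes detected, whose part in the pattern was not tested. Among floxed oocytes 12 of the 15 genes were measured, with a mean correlation of 0.386.

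The group of 10 held Dtx2 (a ubiquitin ligase of the Deltex family), Usp19 (a deubiquitinase), Prickle3, Hgs (an endosomal sorting protein), Itpk1, Zswim4, AU022751, Espl1 (separase), Abhd16a and Disp1. Usp19 ran from 158 to 488 CPM and Espl1 from 73.9 to 395 CPM. Its mean correlation was 0.714 in knockout oocytes and 0.74 in floxed oocytes, where all 10 genes were measured. The mean of the group moved with the summed cumulus markers (r = 0.594 over 23 oocytes), and their part in it was not tested. Without the oocyte of each mouse with the highest cumulus sum the mean correlation of the group was 0.654.

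The group of 9 held Igfbp5 (a secreted IGF-binding protein), Dsp (desmoplakin), Eml6, B4galnt2, Tex19.2, Rhox8, Trpm7, Vav3 and the unnamed gene C130074G19Rik. Igfbp5 ran from 0 to 76 CPM and Dsp from 1.88 to 118 CPM. The group was lowest in mouse 2 oocyte 7 and highest in mouse 2 oocyte 2, as the group of 15 was, and its correlation with the number of genes detected was 0.672. Its mean correlation went from 0.689 to 0.6 without the oocytes of highest cumulus sum. The group of 8 included Cldn34d, Pvt1, Ripk1 (a kinase of cell death and inflammation), Syne2 (nesprin-2, a nuclear envelope protein), Gm10364, Rsf1 and Fam49a. Syne2 ran from 423 to 1007 CPM and Ripk1 from 51.2 to 165 CPM. Its 8 genes were all measured in floxed oocytes, where their mean correlation was −0.047, against 0.698 in knockout oocytes; the difference was not tested.

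The 11 genes of the list of knockout-high transcripts, chosen earlier on these same samples, varied in different ways from oocyte to oocyte. For Agtr1a, Stambpl1, Adh7, Scrn1, Zbtb5, Tpm4, Aox4, Gcm2, Cuedc1, Hpse and Gldn all 24 oocytes lay above the highest floxed oocyte. Of the 11, 4 were variable (Stambpl1, Adh7, Zbtb5 and Aox4), beside 2.09% of all genes, and the list had a median spread over the trend of 1.91. Stambpl1, a deubiquitinase gene, ran from 11.9 to 107 CPM with a median of 67.7 over 23 oocytes, and Zbtb5, a zinc finger transcription factor gene, from 13.6 to 107 CPM with a median of 46.2. Adh7, an alcohol and retinol dehydrogenase gene, ran from 20 to 152 CPM (median 108), and Aox4, an aldehyde oxidase gene, from 85 to 299 CPM (median 162). Each of these 4 calls was lost when the SD was replaced by the median absolute deviation. Stambpl1 and Adh7 also lost it without mouse 4 and when the slope of level on library total was not removed, which left 2 of the 11 variable. Without oocyte 8 of each mouse Stambpl1 and Aox4 lost it. Zbtb5 lost it without thinning and with the trend fitted on level and length.

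Tpm4, a tropomyosin gene at 86.8 to 158 CPM, had the lowest pooled spread over the trend of the 11, 1.2. It was not lowest in each mouse: in mouse 4 Tpm4 was at 1.535 and Cuedc1 at 0.67. Gcm2, a transcription factor gene, ran from 95.4 to 307 CPM (median 224), and 22 of 23 oocytes held 100 CPM or more. Agtr1a, the angiotensin II receptor type 1a gene, was 13.4 CPM in the oocyte of mouse 1 and 26.9 to 113 CPM in the others. Scrn1, which encodes secernin-1, ran from 11.3 to 105 CPM. The 11 genes did not move as a block: over their 55 pairs the median correlation was 0.105 and the range −0.412 to 0.764. Stambpl1 and Zbtb5 gave the highest correlation, 0.764. Of the pairs, 20 had the same sign in all 3 mice. The share of such pairs among other genes was not computed, so nothing is read from this count. The 9 genes of the list of knockout-low transcripts (Oit1, Nyap2, Apba2, Prr32, Glis1, Cpxm2, Crip2, Bpifc and Ece1) were all under a mean of 10 CPM, and the highest value in any oocyte was 11.3 CPM, for Cpxm2 in mouse 2 oocyte 7.

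For each of the 4 label-check genes the partners of most extreme correlation were taken, from genes with the same sign in every mouse only. The shared sign is thus part of the selection and no result. For Zfp36 these were Olfr976 (r = 0.766), Dcaf7 (0.765) and Pdhb (0.745), with Phf20l1 lowest at −0.773. Cuedc1 was closest to Csrnp3 (0.789), Fkbp15 (0.776) and Fam161b (0.751) and opposite to Rabepk (−0.751). The partners of Hpse were Cacna1d (0.777), Lace1 (0.763) and Yipf6 (0.754), with Jmjd6 at −0.75, and those of Gldn were Dync2h1 (0.755), Ptgr2 (0.722) and Ext2 (0.662), with Cmtr2 at −0.74. Each was picked as an extreme among 9617 genes over 23 oocytes. Some were small in 1 mouse: Csrnp3 had 0.051 with Cuedc1 in mouse 4, and Cacna1d 0.027 with Hpse in mouse 2. The positive Hpse partners rested on the oocytes of highest cumulus sum, among them mouse 3 oocyte 1 with the lowest Hpse level. Without these oocytes Cacna1d had 0.293, Lace1 0.107 and Yipf6 0.373 with Hpse, while Jmjd6 had −0.581. Fam161b then had 0.414 with Cuedc1.

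At the other end, a gene with a mean of 100 CPM or more was called uniform if its spread over the trend was in the lowest 20% in each of the 3 mice. Of 3428 abundant genes, 226 were uniform (6.59%), with a median within-mouse SD of 0.08 against 0.18 over all abundant genes. Lowest of all was Ldhb, a lactate dehydrogenase subunit gene, with an SD of 0.028. Next came Gdf9, an oocyte-secreted growth factor (0.034), H1foo, the oocyte linker histone (0.037), Bpgm, a bisphosphoglycerate mutase gene (0.038), Oas1c (0.038) and Zp3, the sperm-binding zona glycoprotein (0.038). Gyg, the glycogenin that primes glycogen synthesis, Dppa3 (STELLA), Tacc3, a spindle protein gene, and Fbxw26 followed at 0.04 to 0.041. In floxed oocytes, which the rule did not use, the uniform genes had a median spread over the trend of 0.574, and 2 of 226 were in the top 10%.

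The uniform genes were short and deeply counted. Their median transcript length was 1422 bases, against 3346 bases over abundant genes, and they had 0.755 counts per base against 0.297. Raw counts of Ldhb ran only from 2137 to 2347 in 23 oocytes whose totals ran from 4423068 to 6233840, a ratio of 1.1 beside 1.41 for the totals. Zp3 ran from 2038 to 2257 counts, H1foo from 1802 to 1972 and Dppa3 from 1206 to 1335. A count that does not grow with the total falls as a share of it: the median slope of log2 level on log2 total was −0.58 in uniform genes and −0.08 over abundant genes. The variance of the raw count was below its mean for 6 genes, all uniform, and 32 of the 226 had an SD below that of a Poisson count. Ldhb had 1.72 counts per base. The sources used here do not say how duplicate reads were treated before counting, and whether these counts are capped was not tested, so a flat count need not mean an equal amount of mRNA.

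Removing the slope on library total decided many of these calls. With the slope kept, 108 genes were uniform, 75 of them among the 226, and all 10 genes named above lost the call, Ldhb going from a spread over the trend of 0.253 to 0.961. With the trend fitted on level and length, 148 genes were uniform, 114 of them shared, and all 10 kept the call. Of the 10, Oas1c lost it without the oocytes of highest cumulus sum. Of the 226 uniform genes, 146 had a share that fell with the library total within mice, beside 2.85% of all 12893 genes tested (edgeR quasi-likelihood test, adjusted p under 0.05). No variable gene fell (5 at an unadjusted p under 0.05, and 2 with DESeq2), and 1 rose, beside 0.349% of all genes. Variable genes were picked for a large spread around this slope and uniform genes for a small one, in these same oocytes. A slope is harder to detect in the former and easier in the latter, so the contrast between them follows in part from the rules.

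**Figure D4:**
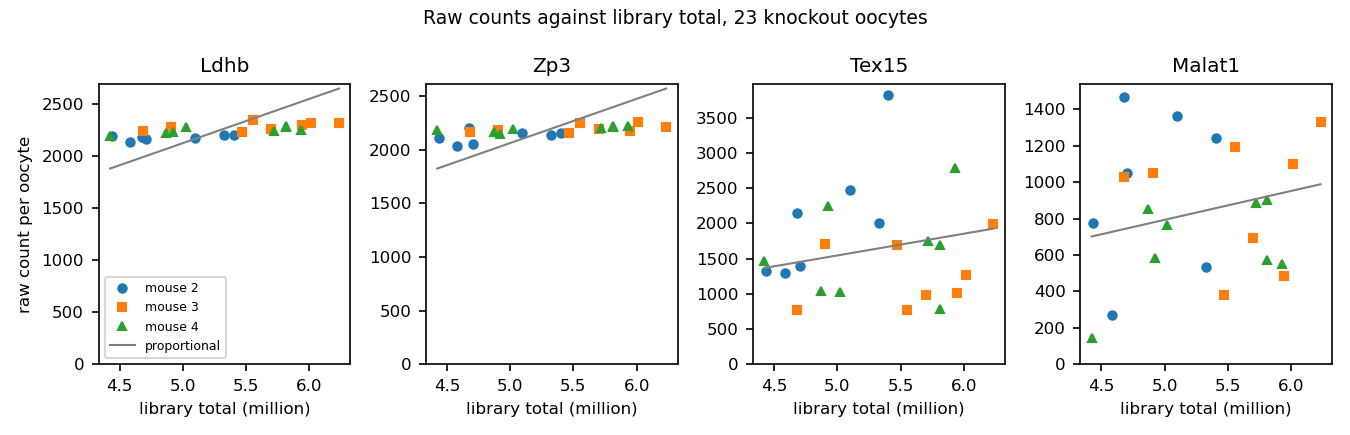
Raw counts of Ldhb, Zp3, Tex15 and Malat1 against the library total for 23 knockout oocytes, with symbols by mouse and a grey line for a count proportional to the total. Ldhb and Zp3 stay within 2137 to 2347 and 2038 to 2257 counts at every total, while Tex15 and Malat1 scatter in all 3 mice.

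Gene groups of the oocyte differed in where their members stood. Of 33 abundant proteasome subunit genes, 14 were uniform, among them Psma7 at 145 to 192 CPM, Psmc5 at 192 to 244 CPM and Psmd4 at 224 to 300 CPM, and none of 43 measured was variable. Uniform genes also numbered 5 of 12 abundant cytosolic ribosomal protein genes (Rpl5, Rpl7, Rpl32 and Rps14 among them), 7 of 19 mitochondrial ribosomal protein genes and 6 of 22 respiratory chain genes, beside 6.59% of abundant genes. Rpl5 was 113 to 148 CPM, Mrpl9 214 to 278 CPM and Ndufa9 154 to 190 CPM. With the slope on library total kept these counts were 7 for the proteasome, 3, 0 and 3, and with the length-aware trend 5, 1, 4 and 1, beside 3.15% and 4.32% of abundant genes. The respiratory chain count under the length-aware trend was thus near the share over all abundant genes. Without the oocytes of highest cumulus sum the counts were 11, 8, 4 and 8, beside 6.41%, and Mrpl9 and Rpl7 were among the genes that lost the call.

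Of 12 abundant genes of the zona pellucida and oocyte-secreted list, 4 were uniform (Zp3, Gdf9, Oosp1 and Oosp3), and of 30 abundant maternal-effect and germ cell factors 10 were: Dppa3, Ooep, Padi6, Npm2, Bcl2l10, H1foo, Oas1d, Gtsf1, Uchl1 and Btg4. With the slope kept each of these lists had 1 uniform gene, beside 3.15% of abundant genes, which for the 30 maternal-effect genes is near the background. With the length-aware trend they had 2 and 8, beside 4.32%, and without the oocytes of highest cumulus sum 6 and 12, beside 6.41%, with Padi6 no longer uniform. Padi6, a subcortical maternal complex gene, was 630 to 822 CPM in the 23 oocytes. Each list also held 1 variable gene, of 14 and of 35 measured, beside 2.09% of all genes. Kit, the receptor for the granulosa cell factor KIT ligand, ran from 207 to 443 CPM, a call lost with the slope kept, the median absolute deviation, the length-aware trend, without oocyte 8 of each mouse and without the oocytes of highest cumulus sum. Sohlh2, a transcription factor of early follicle growth, ran from 0.802 to 98.4 CPM with a median of 22.4, and was variable under every alternative tried.

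In other lists the counts were near the shares over all genes, 2.09% variable and 6.59% uniform of abundant genes, and show nothing particular to the lists. None of 34 meiotic cell cycle genes was variable, and Cdk1, the kinase that drives meiotic resumption, was uniform at 177 to 219 CPM, while Ccnb3 had the highest spread of the list at 21.4 to 125 CPM. None of 13 measured genes of the cyclic AMP arrest pathway was variable or uniform, with Akap1, a kinase anchor, at 117 to 285 CPM and Pde8a, a phosphodiesterase, at 71.1 to 110 CPM. None of 50 mRNA decay genes was variable, and Exosc1 and Exosc7, subunits of the RNA exosome, were among its 3 uniform genes, of 30 abundant; Exosc1 lost the call without the oocytes of highest cumulus sum. Of 35 measured genes for translation and poly(A) control none was variable or uniform.

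Single members of the stress and chromatin lists were variable, beside 2.09% of all genes, and the counts for histone methyltransferases and demethylases were near that share. Hmox1, the heme oxygenase induced by oxidative stress, ran from 3.19 to 163 CPM (median 34.5), and Dnajb1, a heat-shock co-chaperone, from 132 to 300 CPM (median 181). They were 2 of 14 measured immediate-early and stress genes, and the call of Dnajb1 was lost without the oocytes of highest cumulus sum. Kmt2a, a histone H3 lysine 4 methyltransferase gene, was the only variable gene of 29 measured methyltransferases, at 0 to 127 CPM with a median of 3.06. None of 18 measured histone demethylase genes was variable, and Kdm1b, a lysine 4 demethylase of growing oocytes, had their highest spread over the trend, 2.13, at 335 to 586 CPM. Among 15 measured genes of the 2-cell stage, 1 was variable: Usp17lc, a deubiquitinase gene, ran from 0 to 94.2 CPM (median 3.69). Arg2, Obox1, Obox2 and Obox5 were uniform, 4 of 7 abundant genes of the list, beside 6.59% of abundant genes. All 4 lost the call with the slope on library total kept. Obox1, Obox2 and Obox5 also lost it with the median absolute deviation, and Obox5 with the length-aware trend.

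Of the 8 cumulus and granulosa markers at 10 CPM or more, Inha and Gja1 were variable. Inha, the inhibin alpha subunit gene, ran from 5.24 to 146 CPM, and Gja1, the gap junction protein connexin 43, from 1.31 to 97.4 CPM. Their correlation was 0.74, positive in each mouse, and 0.609 without the oocytes of highest cumulus sum, where both calls were lost. Not all markers of the list moved with them: Kitl had −0.482 with Gja1, and Cyp19a1 −0.389 with Inha. The part of attached cells in these levels was not tested.

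Few genes were called as different between mice by the main test, and a gene not called may still differ. An edgeR quasi-likelihood F test over the 23 oocytes of mice 2, 3 and 4 called 34 of 12893 genes (0.264%) at an adjusted p under 0.05, with 1697 genes at an unadjusted p under 0.05. Oocytes are the replicates in this test, so it compares these 3 animals, and anything handled per mouse cannot be told apart from the animal. The called genes were highest in mouse 2 for 17, in mouse 3 for 7 and in mouse 4 for 10, and the highest mouse mean was at least 2 times the lowest for 9. The biological coefficient of variation between oocytes of a mouse was 42.9%.

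Tmem87a, which encodes a Golgi membrane protein, was 105 to 242 CPM in the 7 oocytes of mouse 2, 26.1 to 68.2 CPM in mouse 3 and 30.6 to 69.9 CPM in mouse 4. Mouse 2 did not overlap the others, at a mean of 197 ± 48.3 CPM against 46 ± 11.9 and 56.1 ± 12.2 CPM (SD), and the oocyte of mouse 1 had 23.1 CPM (edgeR adjusted p = 5.77e-08). Ccnd2, which encodes cyclin D2, was 163 to 294 CPM in mouse 4, 38.2 to 172 CPM in mouse 3 and 16.7 to 102 CPM in mouse 2 (edgeR adjusted p = 0.00298), the ranges of mice 3 and 4 overlapping.

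The next genes by p had smaller differences. Gpi1, a glycolytic isomerase gene, was lower in mouse 2, at 93 ± 16.3 CPM, than in mice 3 and 4, at 138 ± 10.2 and 136 ± 9.84 CPM (edgeR adjusted p = 0.00417). Cyb5r3, a cytochrome b5 reductase gene, was 126 ± 17.1, 161 ± 19.5 and 200 ± 25 CPM in mice 2, 3 and 4 (edgeR adjusted p = 0.00417), and Net1, an activator of RhoA, 83.5 ± 26.8, 120 ± 18.3 and 165 ± 28.7 CPM (edgeR adjusted p = 0.0101). Rph3al, a Rab effector of secretion, was lower in mouse 2, at 258 ± 22.9 CPM, than in mice 3 and 4, at 323 ± 16.4 and 322 ± 17.5 CPM (edgeR adjusted p = 0.0118). Slc16a1, a lactate and pyruvate transporter gene, was lower in mouse 4, at 34.2 ± 11.2 CPM, than in mice 2 and 3, at 74.3 ± 18 and 70.6 ± 17.5 CPM (edgeR adjusted p = 0.0147). Atrn, the attractin gene, had the highest ratio of mouse 3 to the next mouse, 1.24, at 104 ± 17.6 CPM (edgeR adjusted p = 0.0249).

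The number of calls moved with which animals entered. Without mouse 2, 1 gene was called; without mouse 4, 7; and without mouse 3, 66. Without oocyte 8 of each mouse 13 genes were called, and Net1 (edgeR adjusted p = 0.0533), Slc16a1 (0.0555) and Atrn (0.0677) were not, and DESeq2 called 380, all 34 among them. With the log2 library total as a covariate 90 genes were called, including the 34. Without the oocytes of highest cumulus sum 29 genes were called, 17 of them among the 34.

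**Figure D5:**
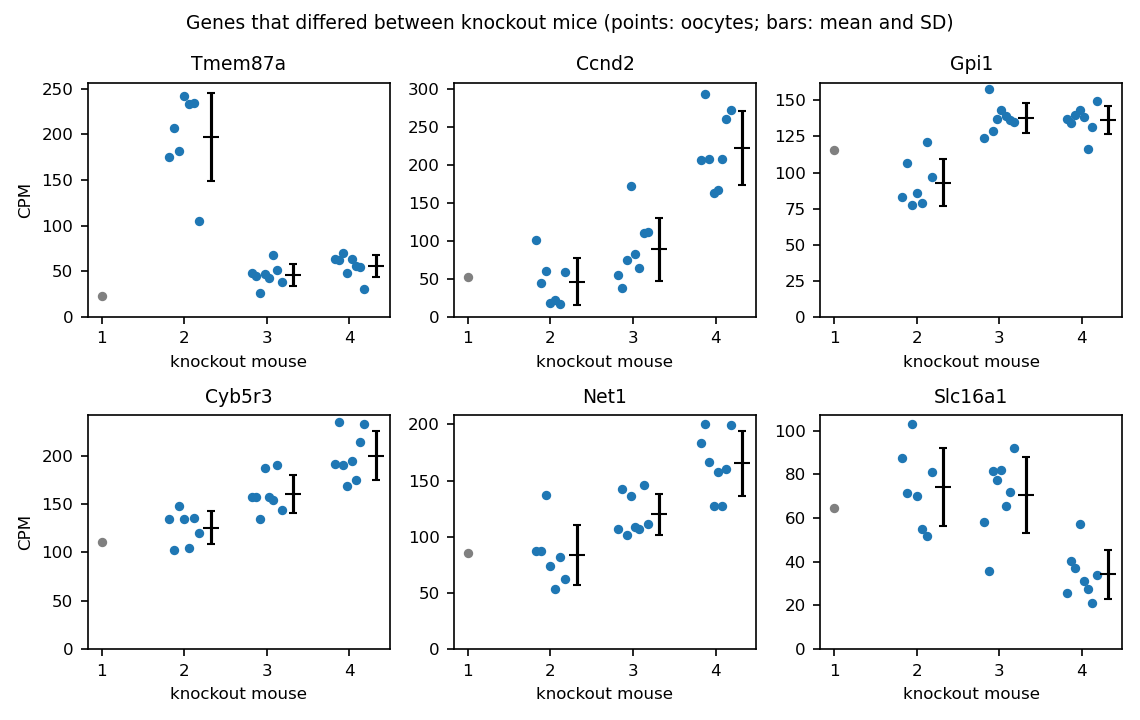
CPM of 6 genes that differed between knockout mice, with 1 point per oocyte, the single oocyte of mouse 1 in grey, and bars for the mean and SD of mice 2 to 4. Tmem87a of mouse 2, at 105 to 242 CPM, lies apart from the other mice, while Ccnd2, Gpi1, Cyb5r3, Net1 and Slc16a1 overlap between some of them.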

How the data were processed

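Single mouse oocytes were sequenced as poly(A)-primed SMARTer libraries without molecular identifiers. Reads were aligned to mm10 with STAR, per the submitters' processing notes; its version and the counting tool were not given in the sources used here. Deposited values are raw counts per gene, 16614 genes in 50 oocytes. Duplicates cannot be told from independent molecules, so floors cover counting error only.

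Counts were thinned to 3000000 per oocyte and set as log2(CPM + 1), with a pseudocount of 1. Values were centred within mouse and their pooled slope on log2 library total was removed. Each SD was divided by a lowess trend (fraction 0.3) on mean level, for genes averaging at least 10 CPM (100 for uniform genes). Variable genes were grouped by average linkage on 1 minus r at a distance of 0.4, in groups of 4 or more. Oocytes are single cells of 3 mice and share animal and handling. Mouse differences and library total were tested with edgeR 4.0.16 (quasi-likelihood F test, TMM, filterByExpr, Benjamini-Hochberg adjustment) and DESeq2 1.42.0 as an alternative. Labels do not say that equal oocyte numbers mark a shared source. Genes were matched to GENCODE mm10 models, 16350 by RefSeq accession and 186 by symbol, with 78 not matched.

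The members and the gene lists were chosen with earlier results of these data known. Named genes were the label-check and earlier listed genes, the 16 highest by spread over the trend (unnamed gene models left out, there and among uniform genes), the 10 uniform genes of lowest SD, the extreme and called members of each list, and the 8 smallest p between mice with the top ratio per mouse; some genes that meet these rules are not reported here. Tested on simulated counts of 16614 genes, the spread rule found 49% of genes planted at 2 times the trend and 95.7% at 4 times. The mouse test, on 12893 genes, found 32.8%, 65.7% and 81.8% of 1.5-, 2- and 4-fold changes. Alternatives changed the slope, thinning, pseudocount, level filter, measure of spread, trend, test, scaling and oocytes used; those without the oocytes of highest cumulus sum were added after the data had been seen.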

Additional observations from a re-analysis of the deposited data

Results flagged for a closer look

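In 129 groups of oocytes of 1 mouse, taken over named genes and the summed marker lists, 16 (12.4%) held an oocyte far from the others by Dixon's criterion. Many of these genes were picked for their spread in these same oocytes. The usual 1 in 20 for normal values is therefore no measure of what chance would give here. The cumulus sum was 613.6 CPM in mouse 2 oocyte 7, where the others were 370 to 434 CPM, and 772.9 CPM in mouse 3 oocyte 1, where the others were 413 to 495 CPM. Mouse 3 oocyte 1 was also low in Hpse, at 248.8 CPM beside 350 to 429 CPM, and in Agtr1a, at 37.02 CPM beside 69.5 to 113 CPM.

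In mouse 4 oocyte 6, Dock11 was 3.391 CPM (others 40.3 to 139), Malat1 33.01 CPM (others 93.3 to 175) and Adh7 31.43 CPM (others 72.9 to 147). Other mouse 4 oocytes stood apart in Stambpl1, at 23.92 CPM in oocyte 3, Uts2r, at 5.976 CPM in oocyte 4, and Dgkk, at 2.53 CPM in oocyte 1. In mouse 2, oocyte 2 was low in Tceal8, at 32.28 CPM beside 149 to 210 CPM, and in Ccnb1ip1, at 0.8551 CPM beside 23.2 to 63.5 CPM. Adh7 was 19.99 CPM in oocyte 5 of mouse 2 (others 78 to 152), and Trim29 was 40.22 CPM in its oocyte 4, where the others were at most 3.61 CPM. In mouse 3, Aox4 was 91.74 CPM in oocyte 8 (others 151 to 228) and Gcm2 125.1 CPM in oocyte 6 (others 203 to 278).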

How the results depend on the processing

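The 201 variable genes became 108 with the median absolute deviation and 331 to 386 when 1 mouse was left out. The 226 uniform genes became 108 with the slope on library total kept, 123 with the median absolute deviation, 148 with the length-aware trend, 380 and 46 with the level minimum at 50 and 300 CPM, and 333 to 359 with 1 mouse left out, since fewer mice then had to meet the rule. The 34 genes that differed between mice became 380 with DESeq2, 90 with library total as a covariate, 13 without oocyte 8 and 1 to 66 with 1 mouse left out; the 412 that followed library total became 782 with DESeq2 and 86 to 379. With the oocyte number as a replicate block, 28 genes differed between mice (17 of the 34) and 119 followed library total (100 of the 412). Labels do not pair equal numbers, and over 22 pairs of same-numbered oocytes the correlation of deviations was −0.223 to 0.283, median 0.044. Over 24 named pairs of genes, all 168 correlations under other settings kept their sign, at sizes of 0.107 to 0.959. Most of these pairs were picked or grouped by their correlation in these same oocytes. A kept sign was therefore likely from the start and is no separate support. Where not stated, the cause was not tested.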

Other observations

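The single oocyte of mouse 1 lay outside the range of the other 23 for 2246 of 9617 genes (23.4%), above it for 1161 and below it for 1085, and for 20 of the 201 variable genes. Its library total, 4332108, was the lowest of the 24, and these levels were not corrected for the total. The share that any other oocyte would place outside was not computed. Examples chosen after their values were seen follow. It held 129 CPM of Rps4l, a ribosomal protein S4-like gene, where the others held 17.9 to 93 CPM, and 160 CPM of Phf8, a histone demethylase gene, where the others held 212 to 278 CPM.

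The remaining groups of co-varying genes held 4 genes each. One was Dnah2 (an axonemal dynein heavy chain, 0.199 to 29.1 CPM), Ppp4r1 (a phosphatase regulatory subunit, 13.7 to 209 CPM), Zfp715 and Sfi1, with a mean correlation of 0.668 and a correlation of 0.604 with the number of genes detected. The other was Ghr (the growth hormone receptor, 3.19 to 65.5 CPM), Cntn6 (a neural adhesion protein, 11.4 to 109 CPM), Taok3 and Top2a (DNA topoisomerase II alpha, 156 to 386 CPM), with a mean correlation of 0.635. In floxed oocytes 3 genes of each group were measured, with mean correlations of −0.105 and −0.056. The differences between genotypes were not tested.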
